A study of Mus musculus with 18 samples.

Results

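Accessible chromatin was described at the loci of Esrrb, Tfcp2l1, Zfp42 and Prdm14, 4 genes of the pluripotency network of mouse embryonic stem (ES) cells. The data are ATAC-seq peak lists, one list for each of 18 libraries. In this assay a transposase cuts accessible DNA and tags it for sequencing, and accessible sites pile up reads into peaks. Members were all peaks that overlap fixed intervals of mm9: chr12:87680000-87880000 for Esrrb (200 kb), chr1:120500000-120600000 for Tfcp2l1 (100 kb), chr8:44360000-44410000 for Zfp42 (50 kb) and chr1:13090000-13140000 for Prdm14 (50 kb). Peaks of the 18 lists that overlapped by 1 bp or more were merged into regions. The loci held 160 of the 377189 regions of the whole genome, namely 76 at Esrrb, 36 at Tfcp2l1, 23 at Zfp42 and 25 at Prdm14.

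Esrrb encodes an orphan nuclear receptor, and Tfcp2l1 a transcription factor of the CP2 family that acts downstream of LIF and STAT3. Both are activators in the network that holds ES cells in the naive state. Prdm14 encodes a PR-domain zinc-finger protein known mainly as a repressor, which limits FGF signalling and DNA methylation in ES cells. Zfp42, also called Rex1, encodes a zinc-finger protein used as a marker of undifferentiated cells and is not itself needed for self-renewal. In the RefSeq gene order Esrrb lies between Gpatch2l and Vash1, Tfcp2l1 between Clasp1 and Gli2, Zfp42 between Triml2 and Adam26b, and Prdm14 between Slco5a1 and Ncoa2.

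All cells were grown on gelatin in serum with LIF and sorted for viability before transposition. Wild-type cells, whose labels name no Cre, received 1 µM ICRF-193, a catalytic inhibitor of topoisomerase II, or its solvent DMSO. Treatment lasted 24 h in 2 libraries of each group and 1 h in 3 of each. The conditional lines were Brg1 fl/fl and Baf53a fl/-, both with Actin-CreER, a Cre expressed from an actin promoter that tamoxifen switches on. Each line was given ethanol or 0.8 µM tamoxifen over 24 h, followed by 48 h in medium with neither, with 2 libraries for each condition. Brg1 is the ATPase of the BAF chromatin remodelling complex and Baf53a is an actin-related subunit of it. The ethanol controls of the Baf53a line already lack 1 allele. The 1 h groups rest on the sample titles and the design text, because the protocol for treatment names only 24 h for wild-type cells. Replicates are passages of a line, and p-values below cover only the variation among such passages.

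Lists held 46431 to 129880 peaks. The shortest was the replicate 2 tamoxifen list of the Brg1 line and the longest the replicate 3 DMSO list at 1 h. Read depth is unknown. Any 2 lists shared at most 85 peaks with identical ends, so that no list was a copy of another. RNA was not measured, and cell identity and the deletions were therefore not checked.

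The RefSeq promoters of these genes are shown to give the sequence context of the loci, since the lists themselves contain no sequence. They run from 250 bases before to 50 bases after the start of transcription on GRCm38.p6, 5′ to 3′ on the strand of the gene. Esrrb has 2 start sites, and 4 promoters of 3 genes matched. Capitals mark matches to 2 of the 3 motifs searched on both strands.

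Esrrb start 1: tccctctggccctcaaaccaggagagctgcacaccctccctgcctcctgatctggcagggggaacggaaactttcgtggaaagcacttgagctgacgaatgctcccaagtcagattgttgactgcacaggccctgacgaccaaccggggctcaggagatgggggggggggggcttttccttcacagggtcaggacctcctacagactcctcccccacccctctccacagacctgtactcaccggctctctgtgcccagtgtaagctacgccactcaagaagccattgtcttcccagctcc
Esrrb start 2: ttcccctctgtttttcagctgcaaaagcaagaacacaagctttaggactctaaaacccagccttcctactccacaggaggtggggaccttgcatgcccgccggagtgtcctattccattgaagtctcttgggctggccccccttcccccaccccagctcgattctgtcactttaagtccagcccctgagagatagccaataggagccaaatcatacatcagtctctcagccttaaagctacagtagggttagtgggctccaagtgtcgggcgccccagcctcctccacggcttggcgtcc
Tfcp2l1: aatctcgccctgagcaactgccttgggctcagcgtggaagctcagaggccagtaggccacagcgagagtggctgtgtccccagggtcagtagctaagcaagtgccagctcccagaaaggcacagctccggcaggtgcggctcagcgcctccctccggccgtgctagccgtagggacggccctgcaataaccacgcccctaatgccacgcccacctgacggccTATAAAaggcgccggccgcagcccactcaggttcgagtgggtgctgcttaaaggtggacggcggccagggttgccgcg
Zfp42: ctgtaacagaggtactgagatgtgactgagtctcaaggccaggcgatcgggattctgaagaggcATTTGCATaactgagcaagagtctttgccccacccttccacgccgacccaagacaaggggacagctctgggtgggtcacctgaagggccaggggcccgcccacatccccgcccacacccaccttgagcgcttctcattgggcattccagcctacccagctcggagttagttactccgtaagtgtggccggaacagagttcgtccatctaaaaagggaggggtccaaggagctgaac

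The motifs searched were the octamer ATGCAAAT, which POU factors such as OCT4 bind, the nuclear receptor element AAGGTCA, which ESRRB binds, and the TATA box TATAAA. The Zfp42 promoter held the octamer on the opposite strand, printed as ATTTGCAT, with its first base 186 bases before the start. Of 32851 RefSeq promoters of the same length, 570 (1.74%) held it on either strand. The Tfcp2l1 promoter held TATAAA, with its first base 28 bases before the start, a motif found in 13.6% of promoters. The nuclear receptor element, found in 4.72% of promoters, was in none of the 4 windows, and neither Esrrb window held any of the 3 motifs. The Tfcp2l1 promoter had 21 CpG sites and the Zfp42 promoter 11, against 7 in each Esrrb window and a median of 7 over all promoters. These promoters follow another build than the peaks. Which peak covers which promoter was therefore not determined, and no region below is placed in an exon, an intron or a promoter, because an annotation of mm9 was not used here.

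The loci were rich in peaks. A list held a median of 20 peaks at Esrrb (range 8 to 31), 10 at Tfcp2l1 (5 to 16), 6 at Zfp42 (4 to 11) and 7 at Prdm14 (3 to 13). Scaled to length these medians were 10, 10, 12 and 14 peaks per 100 kb, where the median 100 kb tile of the genome with any peak held 2.56 and the 90th percentile of tiles was 8.78. The peaks covered 0.809 to 3.72% of the Esrrb interval, 1.88 to 4.64% of the Tfcp2l1 interval, 1.51 to 5.58% of the Zfp42 interval and 0.936 to 6.97% of the Prdm14 interval, depending on the library.

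Most regions were seen in few libraries. Of the 160 regions, 76 (47.5%) were in 1 library and 10 (6.25%) in all 18, against 54.9% and 4.79% of all regions of the genome. The 10 regions in every library comprised 4 at Esrrb, 4 at Tfcp2l1 and 2 at Zfp42, with none at Prdm14. They had a median width of 597 bp, and the single-library regions one of 131.5 bp. Between these ends lay 50 regions in 2 to 8 libraries and 24 in 9 to 17. The 34 regions held by 9 or more libraries are numbered along each locus below, 16 at Esrrb, 7 at Tfcp2l1, 5 at Zfp42 and 6 at Prdm14.

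**Figure D1:**
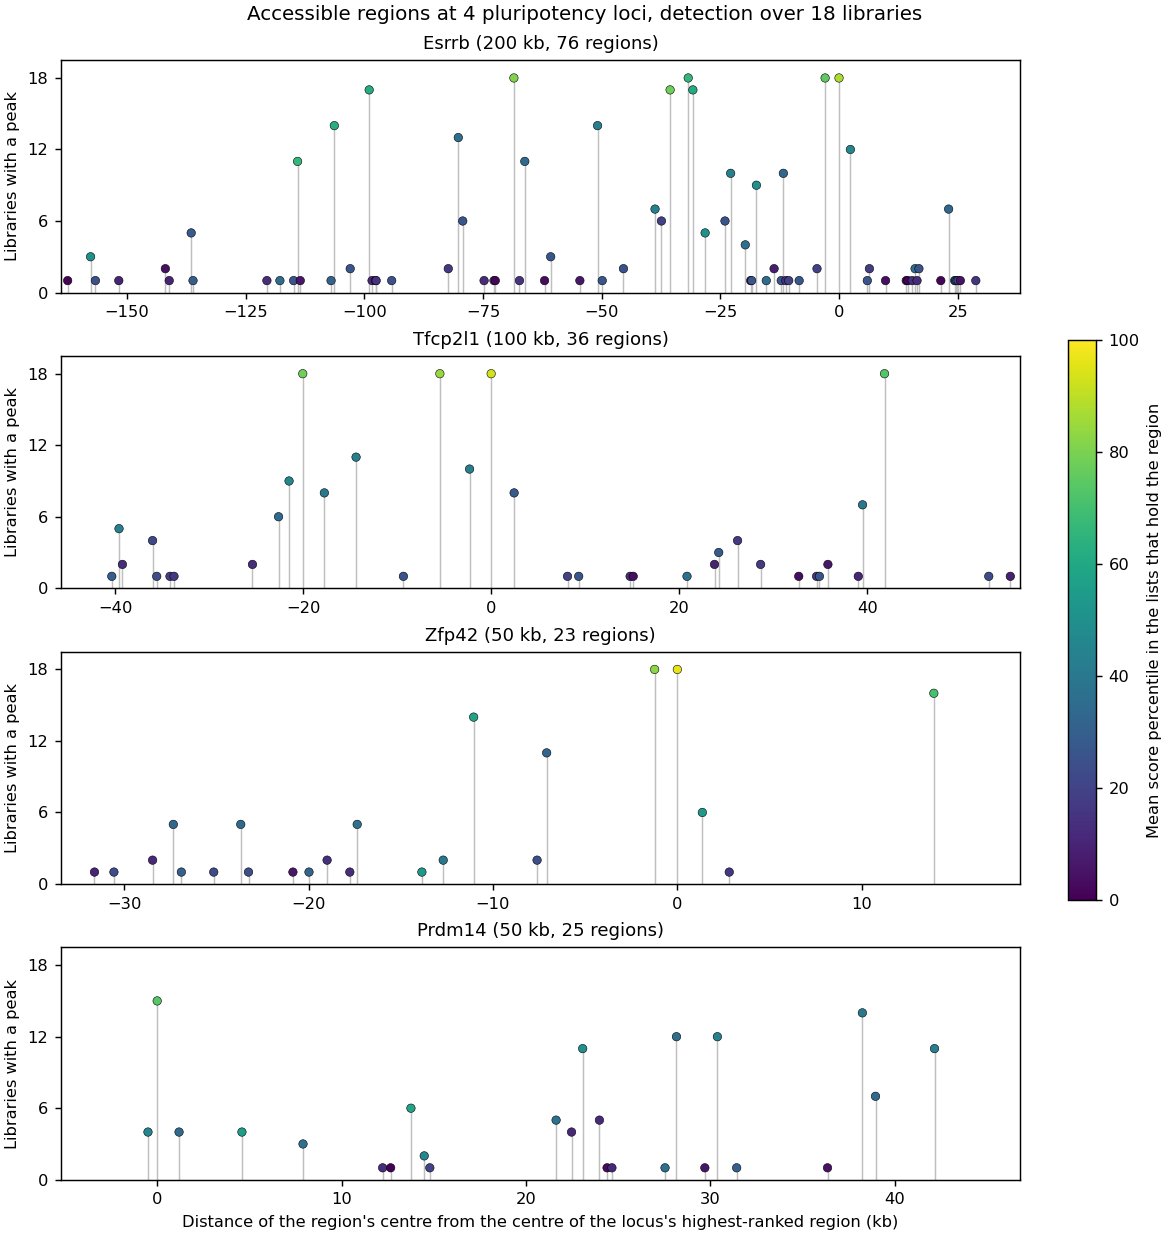
Each point is 1 merged region, with the number of libraries that hold a peak in it (of 18) against the distance in kb of its centre from the centre of the highest-ranked region of the locus; the colour gives the mean of its score percentiles where present. Regions in all 18 libraries stand at Esrrb, Tfcp2l1 and Zfp42, and the most widely held region at Prdm14 reached 15.

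Within a list each peak was ranked by the authors' score and given a percentile, the share of peaks in that list with a lower score. Percentiles describe how prominent a region is within a list. Lists differ in length, so that no change in accessibility is read from them.

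The most prominent region of all 4 loci was Zfp42 4, chr8:44392182-44392662, with a percentile of 93.3 or more in every list. Its mean was 96.0 ± 1.70 (SD, n = 18), and its peaks were 279 to 452 bp wide. In wild-type cells its percentile was 95.6 and 96.1 with DMSO for 24 h against 96.6 and 97.9 with ICRF-193. At 1 h it was 98.1, 94.3 and 96.0 with DMSO against 96.6, 93.7 and 94.3 with ICRF-193. It thus kept to the top 10% of every wild-type list, with or without the inhibitor. In the Brg1 line it was 98.9 and 97.3 with ethanol against 97.9 and 93.5 with tamoxifen, and in the Baf53a line 97.2 and 95.7 against 93.3 and 94.9. The Brg1 and 1 h groups overlapped. The 24 h groups did not, with the ICRF-193 lists higher, nor did the Baf53a groups, with the tamoxifen lists lower. Of the regions that all lists of the 24 h comparison held, 11.7% over the genome had both ICRF-193 percentiles above both DMSO ones and 29% had both below. Both tamoxifen percentiles lay below both ethanol ones in 21.8% of such regions in the Baf53a line and 26.2% in the Brg1 line. Groups apart in this way were thus common, and nothing particular to a region is read from them. With the 46431 highest-scoring peaks of each list, 93.3 and 92.2 stood against 87.3 and 90.4 in the Baf53a line, where 17.4% of regions were so ordered.

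The second Zfp42 region in all libraries, Zfp42 3 at chr8:44390902-44391482, lay 1.23 kb from the first. Its percentile ran from 44.6 (ICRF-193 for 1 h, replicate 2) to 96.5, with a median of 86.7. Zfp42 5, chr8:44406042-44406622, lay 13.9 kb on the other side and was in 16 libraries, at a median percentile of 74.0 in the lists that hold it. It was absent from the replicate 2 tamoxifen list of the Brg1 line and the replicate 2 ethanol list of the Baf53a line, which are not of the same treatment. All 10 wild-type lists held it, at 55.7 to 94.4.

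At Tfcp2l1 the leading region was Tfcp2l1 6, chr1:120544449-120545061, with a mean percentile of 93.0 ± 6.28 (SD, n = 18). It was 96.8 and 97.4 with DMSO for 24 h against 95.7 and 96.3 with ICRF-193. At 1 h it was 92.7, 93.5 and 98.2 with DMSO against 96.7, 85.5 and 94.6 with ICRF-193. In wild-type cells it was thus high under both treatments, with groups that overlapped at 1 h and lay close together at 24 h, the ICRF-193 lists lower. The Brg1 line gave 98.1 and 95.7 with ethanol against 97.9 and 77.6 with tamoxifen. The Baf53a line gave 96.9 and 91.6 with ethanol against 89.97 and 78.9 with tamoxifen. The lowest values of the series were thus those of a tamoxifen replicate of each conditional line, while the other Brg1 tamoxifen replicate was as high as its controls. The Baf53a values with equal numbers of peaks were 92.6 and 84.8 against 80.8 and 60.5. Over the genome 29% of regions held by all lists of the 24 h comparison had both ICRF-193 percentiles below both DMSO ones. In the Baf53a line 21.8% had both tamoxifen percentiles below both ethanol ones, and 17.4% with equal numbers of peaks. Nothing particular to this region is read from the order.

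The other 3 Tfcp2l1 regions in all 18 libraries were Tfcp2l1 2, Tfcp2l1 4 and Tfcp2l1 7. Tfcp2l1 4 (chr1:120538816-120539780), 5.46 kb from the leading region, had a mean percentile of 84.6 ± 7.20, and Tfcp2l1 2 (chr1:120524176-120525250) one of 78.5 ± 6.95 (SD, n = 18 each). Tfcp2l1 7 (chr1:120586325-120586871), 41.8 kb away, varied more, with a mean of 73.1 ± 20.6. It ranged from 23.6 in the replicate 1 tamoxifen list of the Brg1 line to 94.6 with ICRF-193 for 1 h. The replicate 2 DMSO list at 1 h, a control, was the next lowest at 32.3.

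At Esrrb the leading region, Esrrb 15 at chr12:87842498-87843286, was in the top 20% of every list, with a mean percentile of 87.5 ± 3.81 (SD, n = 18). It was 88.3 and 91.1 with DMSO for 24 h against 89.1 and 81.9 with ICRF-193, and at 1 h 88.2, 83.3 and 86.2 against 89.7, 87.1 and 82.5. The wild-type groups overlapped at both times. In the Brg1 line it was 91.3 and 90.4 with ethanol against 90.1 and 87.4 with tamoxifen, groups that lay close together without overlap. In the Baf53a line it was 93.2 and 92.2 with ethanol against 83.3 and 80.5 with tamoxifen, groups that did not overlap. Over the genome 26.2% of regions held by all lists of the Brg1 line were so ordered, and 21.8% in the Baf53a line. Nothing particular to this region is read from the order. With equal numbers of peaks the Baf53a values were 83.8 and 85.9 against 68.1 and 63.5, where 17.4% of regions were so ordered. Those of the Brg1 line were then 79.8 and 82.4 against 81.9 and 87.4. With 2 libraries per group no rank test can reach 0.05, and none was run.

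Esrrb 5, chr12:87774202-87774602, lay 68.5 kb from the leading region and was also in all 18 libraries, at a mean percentile of 81.0 ± 11.8. Esrrb 14 (chr12:87839636-87840291), 2.93 kb from the leading region, and Esrrb 9 (chr12:87810846-87811399) were the other 2 Esrrb regions in every library, at medians of 75.0 and 67.2. Esrrb 8, chr12:87807143-87807475, ranked above them with a mean of 77.8 ± 9.90 (SD, n = 17) and was absent from the replicate 2 tamoxifen list of the Brg1 line, the shortest of the series. The Esrrb regions named here were thus not gathered at a single site, and all lay within 68.5 kb of the leading region in the 200 kb interval.

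Prdm14 had no region in all libraries (0 of 25, against 4.79% of regions over the genome, so that 0 is near the background). Its leading region, Prdm14 1 at chr1:13093912-13094518, was in 15 libraries and absent from both ICRF-193 lists at 24 h and from the replicate 2 tamoxifen list of the Brg1 line. Its percentile was 51.9 and 89.2 with DMSO for 24 h. At 1 h all 6 lists held it, at 83.8, 24.98 and 93.6 with DMSO against 89.0, 67.7 and 80.7 with ICRF-193. The Brg1 line gave 90.4 and 80.5 with ethanol and 85.0 in the tamoxifen list that held it. The Baf53a line gave 85.0 and 64.7 with ethanol against 59.3 and 59.4 with tamoxifen. Its absence under the inhibitor was thus seen at 24 h and in no list at 1 h. The other named Prdm14 regions were weaker: Prdm14 2 (chr1:13117113-13117465) had a mean of 49.7 ± 20.2 in 11 libraries and Prdm14 4 (chr1:13124348-13124841) one of 43.1 ± 23.1 in 12.

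**Figure D2:**
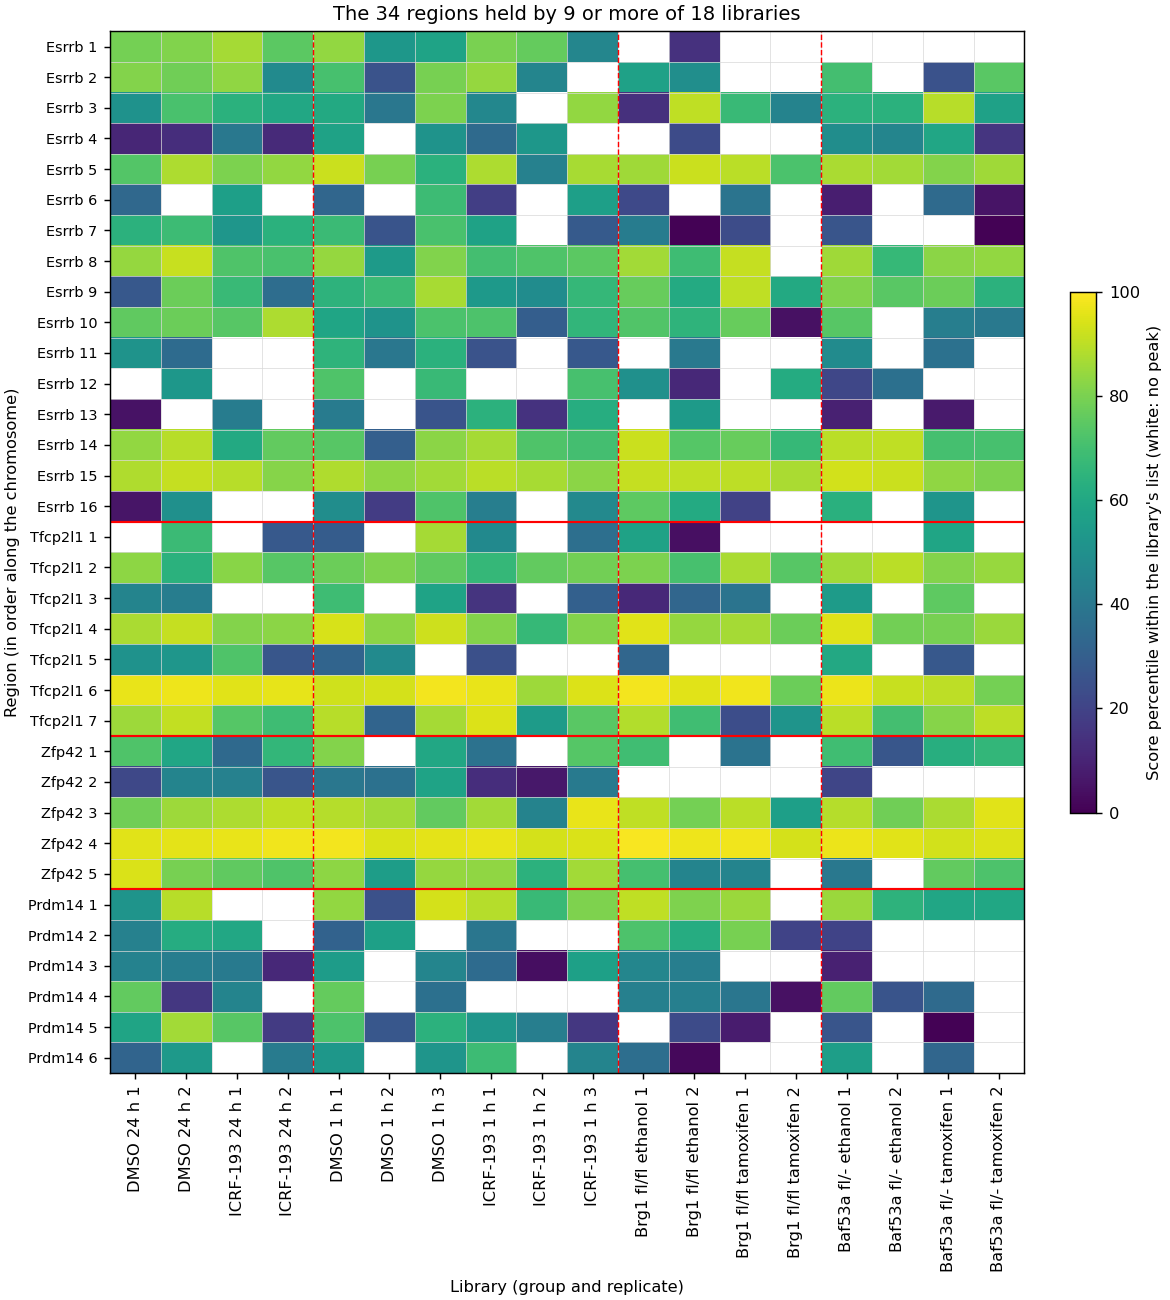
Rows are the 34 regions held by 9 or more libraries, in order along each locus, and columns are the 18 libraries by group and replicate. The colour is the score percentile within the list and white marks no peak; Zfp42 4 is at 93.3 or more throughout, and the replicate 2 tamoxifen column of the Brg1 line has the most white cells, with 15 regions detected.

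Longer lists tended to hold more of the 34 regions, with exceptions, and this relation was not tested. The most were held by the replicate 1 DMSO list at 1 h, with all 34, and the fewest by the replicate 2 tamoxifen list of the Brg1 line, with 15. In wild-type cells the lists held 32 and 32 with DMSO for 24 h against 27 and 25 with ICRF-193, and at 1 h 34, 24 and 32 against 32, 21 and 29. The 24 h groups did not overlap and the 1 h groups did. At 1 h the ICRF-193 list held fewer than the DMSO list of the same number in 3 of 3 pairs. It was also the shorter list in each pair, and whether the numbers pair these samples was not established. The Brg1 line held 28 and 30 with ethanol against 23 and 15 with tamoxifen, groups that did not overlap. The Baf53a line held 32 and 17 with ethanol against 28 and 20 with tamoxifen, which overlapped. Lists of like length could still differ: of those with 83918 to 88729 peaks, the ethanol replicate 2 list of the Brg1 line held 30 regions, its tamoxifen replicate 1 list 23, and the ethanol replicate 2 list of the Baf53a line 17. At 24 h, the replicate 1 lists with DMSO (98166 peaks) and ICRF-193 (98440 peaks) held 32 and 27. The share that each list held of such regions over the genome is not given. Nothing particular to the loci is therefore read from these counts or from groups that did not overlap in them.

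Regions were called lost where every control list and no perturbed list of a comparison held a peak, and gained in the reverse case. After 24 h of ICRF-193, 9 of 37 regions that both DMSO lists held were lost (24.3%), where 15.5% of control-shared regions of the genome were. The losses were 3 of 8 at Prdm14, 3 of 8 at Tfcp2l1, 2 of 15 at Esrrb and 1 of 6 at Zfp42. The most prominent lost region was Prdm14 1, at a mean percentile of 70.6 ± 26.4 (SD, n = 2) in the DMSO lists. Next came the region at chr1:120583894-120584630 of Tfcp2l1, at 51.3 ± 0.421. Also lost were Tfcp2l1 3 (chr1:120530187-120530580) at 43.8 ± 2.08, Esrrb 11 (chr12:87819858-87820268) at 43.1 ± 11.6, Esrrb 16 (chr12:87844982-87845593) at 27.9 ± 31.5, and weaker ones at chr1:13132961-13133377 and chr1:13101877-13102369 of Prdm14, chr1:120570791-120571141 of Tfcp2l1 and chr8:44368541-44368951 of Zfp42. All 5 Zfp42 regions held by most libraries were in both ICRF-193 lists. In the other direction, 1 region was gained of the 26 shared by the ICRF-193 lists, chr1:13098697-13098924 of Prdm14, where 5.46% were gained over the genome; it was also in 2 DMSO lists at 1 h.

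The number of losses at 24 h changed when lists were cut to equal numbers of peaks and when single libraries were left out. With the 46431 highest-scoring peaks of each list none of the 9 stayed lost, since 8 had no peak left in either DMSO list and Prdm14 1 kept a peak in 1 of the 2, while the gained Prdm14 region stayed gained. Lost regions numbered 33 of 64 without DMSO replicate 1 (42.8% of regions over the genome under the same rule) and 16 of 50 without DMSO replicate 2 (32.5% over the genome), where fewer lists have to hold a region. Without ICRF-193 replicates 1 and 2 they numbered 11 of 37 each time, against 31.5 and 21.7% over the genome. Gained regions numbered 5 of 35 and 8 of 40 without ICRF-193 replicates 1 and 2 (22.4 and 27.7% over the genome) and 2 of 26 without DMSO replicate 1 (8.93%).

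After 1 h of ICRF-193, none of 22 regions that all 3 DMSO lists held was lost (2.28% over the genome) and none of the 19 shared by the ICRF-193 lists was gained (0.375% over the genome). Of the 22, 17 were in all 6 lists. Without the short replicate 2 DMSO list, 3 of 41 regions were lost, against 11.1% over the genome. The difference between the 24 h and 1 h counts was not tested, and 3 lists per group make a loss at 1 h a stricter call than at 24 h.

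After Brg1 deletion, 4 of the 28 regions shared by the ethanol lists were lost (14.3%, against 23.9% over the genome) and 1 of the 15 shared by the tamoxifen lists was gained (4.97% over the genome). The most prominent lost region was Esrrb 2, chr12:87736063-87737088, at 57.0 and 49.3 in the ethanol lists and with no peak in either tamoxifen list. It was in 9 of the 10 wild-type lists, at up to 84.0, and in 3 of the 4 lists of the Baf53a line, at 70.2 with ethanol and 25.1 and 74.5 with tamoxifen. Of the 4 it was the only one still lost with equal numbers of peaks. At that setting 3 of 17 locus regions were lost in all, and the share over the genome is not given. The others were Prdm14 3 (chr1:13122188-13122564) at a mean of 44.3 ± 2.08, Tfcp2l1 1 (chr1:120523109-120523404) at 30.9 ± 37.8 and Prdm14 6 (chr1:13135870-13136867) at 19.2 ± 24.0 (SD, n = 2 each). With equal numbers of peaks neither ethanol list held Prdm14 3 or Prdm14 6, and 1 held Tfcp2l1 1. None of these could then be called lost. None of the 3 Zfp42 regions shared by the ethanol lists was lost. The gained region was chr1:120583894-120584630 of Tfcp2l1 at 31.3 and 41.9, which is the same region that was lost with ICRF-193 for 24 h; neither Baf53a group held it. Lost regions numbered 12 of 28 without tamoxifen replicate 1 (49.8% over the genome), 17 of 44 and 17 of 46 without ethanol replicates 1 and 2 (37.6 and 48.5%), and 6 of 28 without the short tamoxifen replicate 2 (26.2%). Gained regions numbered 4 of 21 and 9 of 38 without tamoxifen replicates 1 and 2, against 22.3 and 30.8% over the genome.

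After Baf53a deletion, 3 of the 19 regions shared by the ethanol lists were lost (15.8%, against 11.2% over the genome) and none of the 20 shared by the tamoxifen lists was gained (5.49% over the genome). The lost regions were Esrrb 12 (chr12:87825292-87825695) at 21.3 and 36.8 in the ethanol lists, chr12:87805315-87805650 of Esrrb at 28.6 and 3.38, and chr1:13132961-13133377 of Prdm14 at 3.06 and 4.29. That Prdm14 region was also lost with ICRF-193 for 24 h. No Tfcp2l1 region of 4 and no Zfp42 region of 3 was lost. With equal numbers of peaks neither ethanol list held any of the 3 lost regions, so none could be called lost at that setting. Without ethanol replicate 2, the list with fewer of the 34 regions, 30 of 62 regions were lost (34.95% over the genome), and without ethanol replicate 1, 10 of 27 (28.1%). Gained regions numbered 5 of 20 without ethanol replicate 1 (16.8% over the genome), and 6 of 28 and 10 of 41 without tamoxifen replicates 1 and 2 (31.0 and 24.5%).

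No lost region at the loci was in the 2 strongest of 5 classes. Control-shared regions of the genome were ordered by mean percentile in the control lists into 5 equal classes. The strongest loss, Prdm14 1, was in the middle class, although 1 DMSO list held it at 89.2. The 2 strongest classes held no loss among 13 locus regions with ICRF-193 for 24 h, 5 at 1 h, 11 after Brg1 deletion and 12 after Baf53a deletion. Over the genome 1.65, 0.0181, 7.19 and 0.634% of regions of those classes were lost, shares so low that a count of 0 among so few locus regions is near the background. In the 3 weaker classes 9 of 24, 0 of 17, 4 of 17 and 3 of 7 locus regions were lost, against 24.7, 3.78, 35.0 and 18.2% over the genome. In all there were 16 losses in 15 regions.

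Numbers of peaks at each locus are given as counted in each list, and then scaled to peaks per 100000 peaks of the list where groups did not overlap. At Prdm14 the lists held 11 and 12 peaks with DMSO for 24 h against 7 and 5 with ICRF-193. Scaled, 11.2 and 9.45 stood against 7.11 and 6.50, so that the groups did not overlap on either scale. At 1 h they held 13, 3 and 12 against 7, 4 and 5, which overlapped. The Brg1 line held 6 and 8 with ethanol against 7 and 4 with tamoxifen, and the Baf53a line 12 and 4 against 8 and 3. Replicates of a group, the controls included, thus differed by as much as the groups did in all but the 24 h comparison. Over the genome 17.5% of intervals had both scaled 24 h ICRF-193 values below both DMSO values. The share for unscaled counts is not given. Nothing particular to Prdm14 is read from the order at 24 h.

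At Esrrb the lists held 23 and 26 peaks with DMSO for 24 h against 20 and 14 with ICRF-193, and at 1 h 24, 18 and 22 against 23, 12 and 20. The Brg1 line held 20 and 21 against 16 and 8, and the Baf53a line 31 and 14 against 16 and 14. The 24 h and Brg1 groups did not overlap in these counts, and the shortest list of each of these comparisons was a perturbed one. How many intervals of the genome had counts apart in this way is not given. Nothing particular to the loci is therefore read from unscaled counts that stood apart. Scaled, the Brg1 groups overlapped, at 18.6 and 24.7 with ethanol against 18.9 and 17.2 with tamoxifen. The 24 h groups stayed apart when scaled, at 23.4 and 20.5 with DMSO against 20.3 and 18.2 with ICRF-193. Over the genome 17.5% of intervals were so ordered. At 1 h the count was lower with ICRF-193 in 3 of 3 pairs of the same number, and the scaled value in 1 of 3. Whether these numbers pair the samples was not established. Tfcp2l1 had 11 and 16 against 8 and 10 peaks at 24 h, 15, 8 and 12 against 12, 8 and 9 at 1 h, 12 and 11 against 10 and 8 in the Brg1 line, and 13 and 5 against 10 and 5 in the Baf53a line. Its groups did not overlap in these counts at 24 h or in the Brg1 line, but did once scaled, at 11.2 and 12.6 against 8.13 and 13.004 at 24 h and 11.2 and 12.9 against 11.8 and 17.2 in the Brg1 line.

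Zfp42 had 6 and 11 against 5 and 6 at 24 h, 7, 4 and 9 against 7, 6 and 8 at 1 h, 8 and 4 against 6 and 4 in the Brg1 line, and 8 and 4 against 7 and 6 in the Baf53a line. These counts touched or overlapped in every comparison. Scaled, the 1 h groups stood just apart, at 5.76, 6.83 and 6.93 with DMSO against 6.94, 11.9 and 8.39 with ICRF-193. Scaled groups thus stood apart in 3 of 16 cases, with fewer peaks at Esrrb and Prdm14 at 24 h and more at Zfp42 at 1 h. Over the intervals of the genome 17.5% had both 24 h ICRF-193 values below both DMSO values, and 4.95% had all 1 h ICRF-193 values above all DMSO values.

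**Figure D3:**
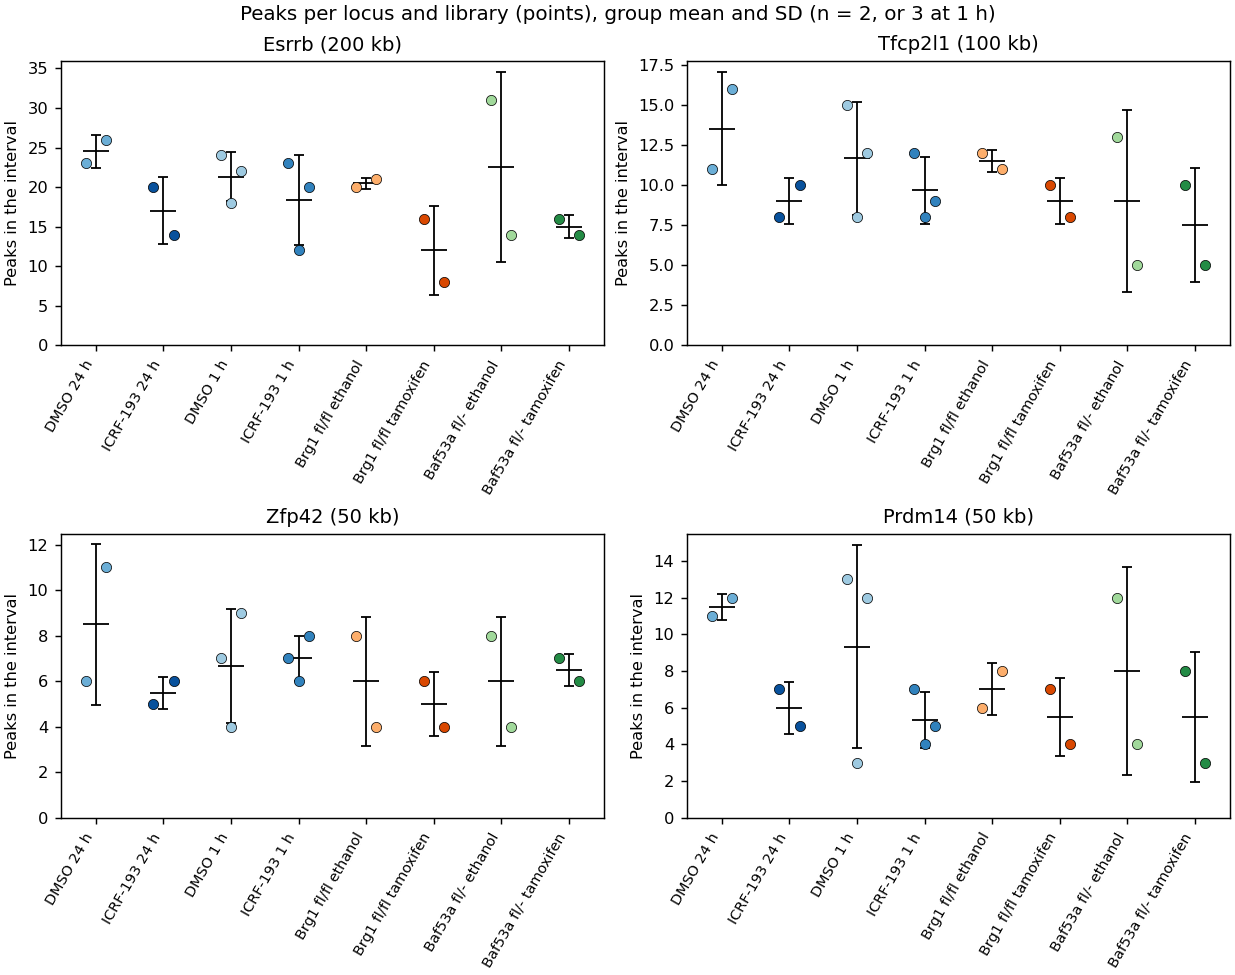
Points are the numbers of peaks in each locus interval per library, by group, with a line at the group mean and bars of 1 SD (n = 2, or 3 at 1 h). The 2 ethanol lists of the Baf53a line stand far apart at every locus, as at Esrrb with 31 and 14 peaks.

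Scaled to list length, no locus passed the test in any comparison. The test was limma on log2 peaks per 100000 peaks of the list, fitted over 11354 intervals (100 kb tiles with a mean of 3 or more peaks and the 4 loci). None of the 16 changes passed an adjusted p of 0.05, none had an unadjusted p under 0.05, and the lowest was 0.144 (limma, Zfp42 with ICRF-193 for 1 h). With ICRF-193 for 24 h the log2 change was -0.54 at Prdm14 (95% interval -1.35 to 0.27), -0.17 at Esrrb (-0.70 to 0.35), -0.18 at Tfcp2l1 (-0.88 to 0.51) and -0.17 at Zfp42 (-0.89 to 0.55), each with a limma adjusted p of 0.991. At 1 h it was -0.25 at Prdm14 (-0.91 to 0.41), 0.054 at Esrrb (-0.38 to 0.48), 0.072 at Tfcp2l1 (-0.50 to 0.64) and 0.43 at Zfp42 (-0.16 to 1.02), with limma adjusted p of 0.991 to 0.992. All 8 intervals include 0, and a p that misses the threshold does not show that the loci are alike between groups.

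After Brg1 deletion the log2 change was -0.22 at Esrrb (95% interval -0.75 to 0.31), 0.26 at Tfcp2l1 (-0.43 to 0.96), 0.41 at Zfp42 (-0.30 to 1.13) and 0.25 at Prdm14 (-0.56 to 1.06), with limma adjusted p of 0.638 to 0.827 and a median of 0.12 over all intervals. After Baf53a deletion it was -0.33 at Esrrb (-0.86 to 0.19), -0.049 at Tfcp2l1 (-0.74 to 0.65), 0.31 at Zfp42 (-0.41 to 1.03) and -0.33 at Prdm14 (-1.14 to 0.48), each with a limma adjusted p of 0.994. Over the genome the Brg1 comparison called 88 intervals with fewer peaks (0.775%) and 14 with more (0.123%). The other 3 comparisons called none (0%), with 519, 452 and 491 intervals at an unadjusted p under 0.05 for ICRF-193 at 24 h, ICRF-193 at 1 h and Baf53a deletion, and 1564 for Brg1 deletion. The difference between the deletions and that between the times of ICRF-193 passed at no locus (8 tests, limma adjusted p of 0.862 to 0.999). With equal numbers of peaks the change at Prdm14 with ICRF-193 for 24 h turned to 0.42, and that at Esrrb to 0.14.

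**Figure D4:**
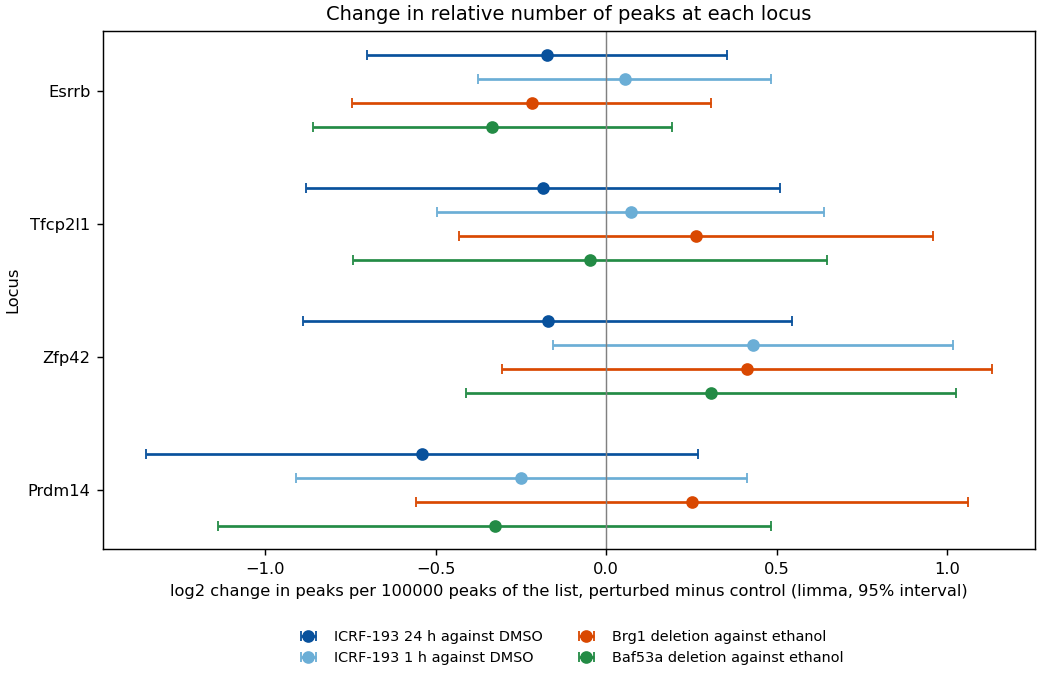
The log2 change in peaks per 100000 peaks of the list is drawn for each locus and comparison, perturbed minus control, with its 95% interval from limma over all 18 libraries. All 16 intervals include 0, and the lowest value is -0.54 at Prdm14 with ICRF-193 for 24 h.

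Of the 16 locus regions with a peak in all 10 wild-type lists, 2 were nearly absent from the conditional lines, held by 1 or fewer of their 8 lists. Over the genome 0.53% of such regions (137 of 25854) met this rule, which was chosen after the values were seen and was not tested. Esrrb 1, chr12:87728605-87729064, had percentiles of 79.2 and 80.9 with DMSO and 86.6 and 74.8 with ICRF-193 at 24 h, and of 83.8, 53.0 and 57.9 with DMSO and 80.1, 76.5 and 45.8 with ICRF-193 at 1 h. Among the conditional lists only the ethanol replicate 2 list of the Brg1 line held it, at 14.4. With equal numbers of peaks 8 lists held it. Zfp42 2, chr8:44385143-44385527, was weaker, at 6.44 to 58.1 in the wild-type lists and 20.9 in the ethanol replicate 1 list of the Baf53a line, and was held by 1 list with equal numbers of peaks. In the reverse direction none of 11 regions in all 8 conditional lists was so rare in wild-type cells (0.302% over the genome). Cell line, solvent, Cre and time of treatment differ together between these lists and cannot be told apart.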

How the data were processed

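Each deposited file is the authors' list of peaks for 1 library, called per library. Per the submitters' processing notes, reads were handled on mm9 and the tools named are edgeR 3.12.1, MACS2 and Bowtie 0.12.9, in roles the notes leave unsaid. Calling thresholds, blacklists and any shift of reads are not given in the sources used. Each peak's score is a deposited value whose unit the authors do not state. It was used only to rank peaks within a list. Positions (other values of the deposited files) are printed counted from 1. The lists hold no read counts, so depth is unknown and no counting interval can be given.

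Overlapping peaks of the 18 lists were merged and checked with bedtools 2.31.1, in Python 3.11.15 (numpy 2.4.6, pandas 2.3.3, matplotlib 3.10.9). Peak numbers per interval were fitted with limma 3.58.1 in R 4.3.3 as log2((peaks + 0.5) / list total × 100000), with 1 term per group over all 18 libraries, a variance trend and Benjamini-Hochberg adjustment over 11354 intervals, called under 0.05. The fit was tried on peak numbers simulated for the Brg1 comparison, with the same spread setting in all intervals. This is no check of the spread between the real lists or of the other comparisons. The members, lists and rules were chosen with earlier results of these data known. Named were the 3 regions of highest mean percentile per locus among those in 9 or more libraries, every lost or gained region, and any region absent from 1 to 4 libraries with a mean percentile of 80 or more. Other regions in all 18 libraries, and those that follow the cell line, were named after their values were seen. At 1 h, same-numbered ICRF-193 and DMSO libraries deviated together over intervals (r of 0.179, 0.290 and 0.150). Libraries of different number ran from -0.216 to 0.113, with replicates 1 and 3 positive both ways (0.113 and 0.077). Whether the numbers pair these samples was therefore not established. The replicate block changed no call at the loci. A planned list of other pluripotency genes was not run, because an annotation of mm9 was not used here. Alternatives were equal numbers of peaks (46431), peaks above each list's median score, a 50 bp overlap for merging, a pseudocount of 1, no filter on tiles, no variance trend, quantile normalization, a replicate block and leaving out each library.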

Additional observations from a re-analysis of the deposited data

How the results depend on the processing

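With the 46431 highest-scoring peaks of each list, 0 of 16 locus regions were lost with ICRF-193 for 24 h. After Baf53a deletion 0 of 13 were lost. Gained were 1 of 14 with ICRF-193 for 1 h, 0 of 12 after Brg1 deletion and 1 of 16 after Baf53a deletion. With the peaks above each list's median score, 2 of 21 were lost with ICRF-193 for 24 h. After Brg1 deletion 1 of 15 was lost and 0 of 9 gained, and after Baf53a deletion 0 of 13 and 1 of 16. Shares over the genome at these settings are not given, so these counts are not set against a background. Shortened lists hold fewer weak peaks by construction. The other 14 region counts with these settings or a 50 bp overlap stayed within 1.5 times.

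No locus was called in any of the alternative fits (lowest limma adjusted p 0.360), but directions turned, and the cause was not tested. With equal numbers of peaks the log2 change was 0.14, 0.27 and 0.42 at Esrrb, Tfcp2l1 and Prdm14 with ICRF-193 for 24 h, -0.25 and -0.028 at Esrrb and Tfcp2l1 at 1 h, -0.24 at both Tfcp2l1 and Prdm14 after Brg1 deletion, and 0.10 at Tfcp2l1 after Baf53a deletion. The difference between deletions turned to -0.072, -0.34, -0.51 and -0.19 at Esrrb, Tfcp2l1, Zfp42 and Prdm14, and that between times to 0.39, 0.29 and 0.46 at Esrrb, Tfcp2l1 and Prdm14. With peaks above the median score it was 0.16 and 0.0045 at Esrrb and Tfcp2l1 with ICRF-193 for 24 h, -0.21 at Esrrb at 1 h, -1.22 at Prdm14 after Brg1 deletion, and 0.16 and 0.13 at Esrrb and Tfcp2l1 after Baf53a deletion. Quantile normalization gave -0.065 and -0.040 at Esrrb and Tfcp2l1 at 1 h and -0.0018 at Tfcp2l1 after Brg1 deletion, and moved the median of all intervals in that comparison from 0.12 to 0.0033. The other 104 values kept their sign.

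With single libraries left out, lost regions ran from 11 to 33 with ICRF-193 for 24 h, 0 to 3 at 1 h, 6 to 17 after Brg1 deletion and 3 to 30 after Baf53a deletion, and gained regions from 1 to 8, 0 to 0, 1 to 9 and 0 to 10. The log2 change ran from -0.27 to -0.074 at Esrrb, -0.51 to 0.15 at Tfcp2l1, -0.47 to 0.13 at Zfp42 and -0.67 to -0.41 at Prdm14 with ICRF-193 for 24 h, and from -0.13 to 0.31, -0.13 to 0.25, 0.21 to 0.61 and -0.51 to -0.066 at 1 h. It ran from -0.42 to -0.015, -0.018 to 0.55, 0.12 to 0.70 and -0.11 to 0.61 after Brg1 deletion, and from -0.69 to 0.027, -0.50 to 0.40, 0.047 to 0.57 and -0.95 to 0.30 after Baf53a deletion. A group left with 1 library is assumed to vary like the others.

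The replicate block left all 24 directions and calls at the loci as they were (lowest limma adjusted p 0.559), with -0.54 at Prdm14 for ICRF-193 at 24 h (limma adjusted p 0.877). Same-numbered libraries correlated at 0.00050, 0.038 and 0.055 at 24 h and in the Brg1 and Baf53a lines. With 2 libraries per group, libraries of different number give the same value with the opposite sign. Whether the numbers pair these samples was therefore not established here either. In the Brg1 comparison the intervals with fewer and more peaks were 88 and 14 in all, 122 and 29 with the block, 17 and 2 with equal numbers, 24 and 5 above the median score, 26 and 8 with a pseudocount of 1, 90 and 9 with no filter, 7 and 1 with quantile normalization, 0 and 0 without ethanol replicate 1, 3 and 1 without ethanol replicate 2, 456 and 88 without tamoxifen replicate 1, and 44 and 1 without tamoxifen replicate 2.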
